A study of Mus musculus with 8 samples.

Results

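Respiratory complex I is the NADH:ubiquinone oxidoreductase of the inner mitochondrial membrane, and the transcripts of its nuclear-encoded subunits were examined in the quadriceps muscle of mice given chemotherapy. The 36 genes described here are those of the deposited expression table whose symbol is on a list of nuclear complex I subunits, out of 12896 genes in the table. All 36 were found, and all passed the filter of at least 40 reads summed over the 8 libraries that left 12883 genes for testing. The rule that defines the members uses gene names and no measured value.

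The animals were CD2F1 male mice without a tumour, given as 8 weeks old. The authors state this age for the mice entering treatment, which then ran before the muscle was taken. The 4 Folfiri mice received 5-FU at 30 mg/kg, Leucovorin at 90 mg/kg and CPT-11 at 24 mg/kg by intraperitoneal injection, 2 times a week over as many as 5 weeks, and the 4 Vehicle mice served as controls. 5-FU is an antimetabolite, leucovorin a folate that strengthens its action, and CPT-11 (irinotecan) a topoisomerase inhibitor. Poly(A) RNA of each muscle was sequenced on the SOLiD platform, the deposited reads were counted per RefSeq gene, and each library is 1 mouse. RNA came from whole muscle, so fewer cells of a type and less RNA per cell cannot be told apart.

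Complex I takes electrons from NADH, passes them along a chain of iron-sulfur clusters to ubiquinone, and pumps protons across the membrane. Its matrix arm holds the flavin and the clusters, its membrane arm holds the proton channels, and many accessory subunits surround both. The proton-pumping core subunits are encoded by mitochondrial DNA and the others by nuclear genes. Muscle fibres with many mitochondria, such as slow and oxidative fibres, hold much of the complex. The table holds 0 genes of the mitochondrial chromosome, so the mitochondrially encoded subunits were not analysed here.

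For a family of short, abundant transcripts, copies elsewhere in the genome bear on what a read count means. An intronless copy, usually a pseudogene left by reverse transcription, can share the whole of a 75-base read with the gene itself. Of the 36 members, 12 had at least 1 copy that matched at least 80% of the coding sequence at 90% identity or more, 17 copies in all on the mm9 assembly. In 9 members at least 1 stretch of 75 bases of coding sequence, the read length, was also present exactly at another locus. The stretches below are shown because the members with the most such matches were also those with the fewest reads. Each is written 5′ to 3′ along the gene's sense strand, with the gene first and its copy after it, and a capital marks a base at which the copy differs from the gene.
Ndufb4 (mm9, chr16:37654371-37654445, minus strand, first coding exon): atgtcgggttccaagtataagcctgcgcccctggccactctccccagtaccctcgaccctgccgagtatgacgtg
Ndufb4 copy (mm9, chr15:73640252-73640326, minus strand): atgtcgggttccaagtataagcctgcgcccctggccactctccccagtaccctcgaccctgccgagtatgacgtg
Ndufb4 copy (mm9, chr19:25107632-25107706, plus strand): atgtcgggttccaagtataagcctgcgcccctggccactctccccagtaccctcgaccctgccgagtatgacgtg
Ndufs5 (mm9, chr4:123393248-123393322, minus strand, coding exon): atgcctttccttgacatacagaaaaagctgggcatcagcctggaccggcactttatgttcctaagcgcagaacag
Ndufs5 copy (mm9, chr16:42955744-42955818, plus strand): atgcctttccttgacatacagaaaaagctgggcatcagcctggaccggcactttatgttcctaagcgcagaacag
Ndufa12 (mm9, chr10:93662693-93662767, plus strand, coding exon): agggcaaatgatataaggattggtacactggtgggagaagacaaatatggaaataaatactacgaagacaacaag
Ndufa12 copy (mm9, chr5:130664313-130664387, plus strand): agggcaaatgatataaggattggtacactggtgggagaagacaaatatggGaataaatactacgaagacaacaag

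The Ndufb4 stretch was identical at all 3 loci, the Ndufs5 stretch at both of its loci, and the Ndufa12 copy differed at 1 base. Over the whole coding sequence, 100% of the 75-base windows of Ndufb4 were found exactly elsewhere, and the shares were 93.5% for Ndufab1, 61.2% for Ndufa12, 59.9% for Ndufs5 and 36.6% for Ndufs3. Ndufs6, Ndufb3, Ndufb11 and Ndufa11 had between 1.4% and 9.5%, and the other 27 members had none. How reads that fit several loci were treated is not given in the sources used here. The counts of these 9 members, and above all of the 4 with more than 50% of windows shared, are therefore uncertain. Exons of Ndufs1, Ndufa2, Ndufa13, Ndufb2, Ndufb5, Ndufb6 and Ndufb11 also overlap a gene on the opposite strand (for Ndufs1, Gm11602), and those of Ndufb2 overlap Adck2 on the same strand. Whether counting used strand is not given in the sources used here, so reads of such partners cannot be told apart.

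The unit of level is CPM, each library's counts brought to 1 size with TMM factors, which set the bulk of genes to a common level. Genes were compared with one another as CPM per kilobase of the length listed for the gene. Among the 36 members the Vehicle mean ran from 2.53 CPM per kilobase for Ndufb4 to 1062 for Ndufa4. The median member stood at 222 CPM per kilobase, against 5.24 for the median of all genes tested. The 4 members with over 50% of windows shared had 2.53, 6.92, 10.5 and 44.2 CPM per kilobase, a median of 8.74, while the 27 members with no shared window ran from 68.6 to 1062 with a median of 287. The 5 members in between had a median of 153. Per kilobase, 3 of the 4 members with over 50% of windows shared were the lowest of all, and Ndufa11, with 1.4% shared, lay below Ndufa12 (33.6 against 44.2). The part of the copies in the low counts was not tested.

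**Figure D1:**
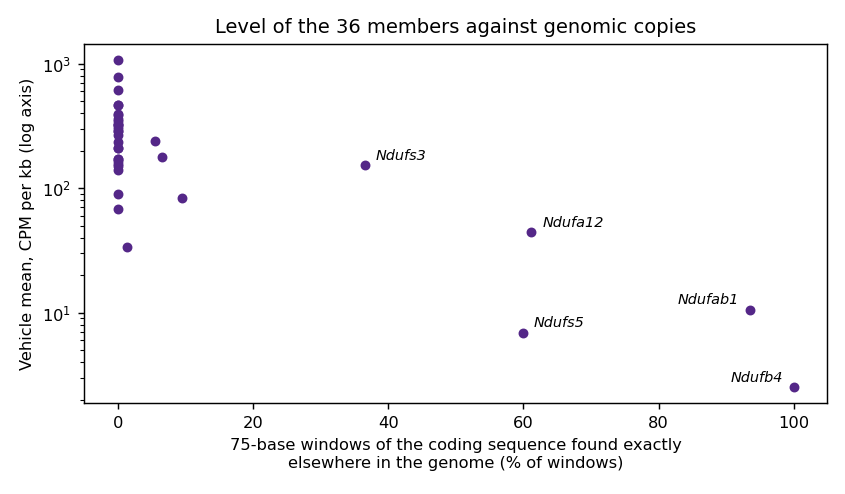
Vehicle mean level of each of the 36 members (CPM per kilobase of transcript, logarithmic axis) against the percentage of its 75-base coding windows that occur exactly at another place in the mm9 genome, 1 point per gene. Ndufb4 (100%), Ndufab1 (93.5%), Ndufa12 (61.2%) and Ndufs5 (59.9%) have levels of 44.2 CPM per kilobase or less, and the genes without a shared window lie at 68.6 or above.

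The length listed by the authors was compared with the transcripts of GENCODE M1, and in 21 of the 36 members the closest transcript came within 10% of it. In the other 15 the length of the closest transcript differed from the listed one by -57.7% (Ndufa7) to 201.7% (Ndufc1). Its length would move the Vehicle level of 6 members by over 1.5 times, from 68.6 to 162 CPM per kilobase for Ndufa7, from 321 to 106 for Ndufc1, from 301 to 525 for Ndufa5, from 362 to 216 for Ndufa10, from 44.2 to 97.7 for Ndufa12 and from 2.53 to 1.18 for Ndufb4. The order of levels per kilobase is uncertain to that extent, and Ndufa12 would then stand above Ndufv3 (90.0), which has no shared window. The members are short genes as a group, with lengths of 349 to 2927 bases and a median of 666, against 2941 for all genes tested.

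**Figure D2:**
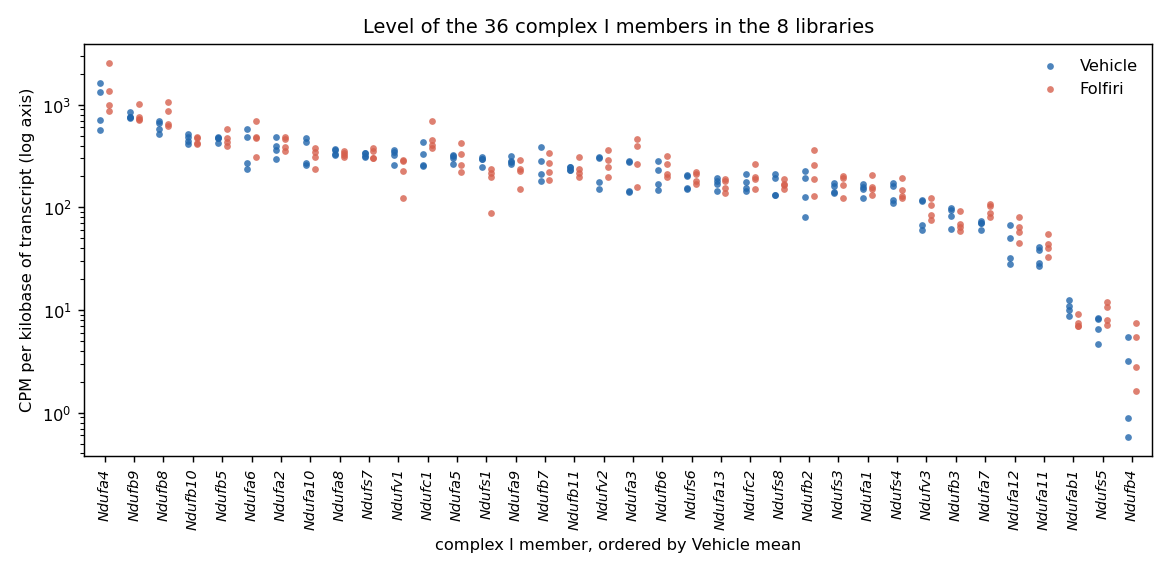
Level of each of the 36 members in the 4 Vehicle (blue) and 4 Folfiri (red) libraries, in CPM per kilobase of transcript on a logarithmic axis, 1 point per library, with genes ordered by their Vehicle mean. Levels fall from 1062 CPM per kilobase for Ndufa4 to 2.53 for Ndufb4, and Ndufs1 and Ndufa7 are the 2 genes whose red and blue points do not overlap.

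None of the 36 members differed between Folfiri and Vehicle muscle at an adjusted p under 0.05 in edgeR's quasi-likelihood comparison, and the smallest adjusted p among them was 0.428. Over all genes 0.00776% were called, which is 1 gene of 12883. At an unadjusted p under 0.05, 2 members (Ndufa7 and Ndufc1) were higher in Folfiri and 2 (Ndufs1 and Ndufab1) were lower, which is near the shares of 5.48% of all genes higher and 4.02% lower. No member was called by 4 other tests either, which called 0.668% of all genes (edgeR's exact test), 0.784% (edgeR's likelihood ratio test), 0.598% (DESeq2) and 0.0233% (limma voom). At an unadjusted p under 0.05 these tests gave 2 to 4 members higher and 2 to 3 lower, beside 668 to 828 of all genes higher and 495 to 628 lower. Scaled by library totals alone the split was 2 higher and 0 lower, as against 2 and 2. Over all genes that scaling gave 1173 higher and 188 lower. The standard errors of the members' log2 fold changes ran from 0.148 to 0.627.

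The estimate was above 0 in 26 of the 36 members and below 0 in 10, with a median log2 fold change of 0.12, against 51.4% of all genes above 0 and a median of 0.01. Short genes at large were above 0 more often, 70.2% of all genes under 600 bases and 73.8% of those of 600 to 1000 bases. The balance of the members differed between settings. With an offset for length the median was -0.15 and 13 members were above 0, and without Folfiri 1 the median was 0.02 and 19 were above 0. With any other single library left out, 22 (without Vehicle 4) to 28 (without Folfiri 2) were above 0. The summed reads of the members, 7021 to 8856 CPM in Vehicle and 7448 to 9259 CPM in Folfiri, overlapped between the groups.

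The core subunits of the matrix arm carry the electron path. Of the nuclear ones, 6 are members, and their sum was 2377, 2504, 2081 and 2258 CPM in Vehicle muscles and 1566, 1960, 2179 and 2086 CPM in Folfiri muscles. Only Folfiri 1 and Folfiri 2 lay below all Vehicle libraries. Within the 6, 2 had negative and 4 had positive estimates.

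Ndufs1, the large iron-sulfur subunit, spans positions 63190166 to 63223396 of chromosome 1 (mm9). Its levels were 862, 912, 729 and 861 CPM in Vehicle libraries 1 to 4 and 258, 636, 582 and 696 CPM in Folfiri libraries 1 to 4. All 4 Folfiri libraries lay below all 4 Vehicle libraries, which was so for 2.66% of all genes, and Folfiri 1 was far below the other 3. Its log2 fold change was -0.63 (SE 0.27, adjusted p = 0.503, edgeR quasi-likelihood). With the libraries left out in turn this estimate ran from -0.77 to -0.40, and the unadjusted p was under 0.05 in 14 of 19 alternative settings, but not with library totals or without Vehicle 1, Vehicle 2, Vehicle 4 or Folfiri 3.

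Ndufv1, which binds NADH and the flavin, was also lowest in Folfiri 1. It stood at 416, 519, 584 and 561 CPM in Vehicle and at 198, 364, 460 and 454 CPM in Folfiri. The groups overlapped only through Vehicle 1, and Folfiri 1 was the lowest of the 8 by a wide gap. Folfiri over Vehicle, the log2 fold change was -0.49 (SE 0.25, adjusted p = 0.552, edgeR quasi-likelihood), and -0.29 without Folfiri 1.

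Ndufv2, the iron-sulfur partner of Ndufv1 in the NADH-oxidising tip, ran the other way across the same libraries. Its levels were 505, 490, 245 and 291 CPM in Vehicle and 590, 406, 475 and 320 CPM in Folfiri. Here Folfiri 1 was the highest of the 8 and Vehicle 3 the lowest. The estimate was a log2 fold change of 0.23 (SE 0.27, adjusted p = 0.803, edgeR quasi-likelihood), so the difference was smaller than its error. With libraries left out in turn it ran from 0.06 to 0.39, and it was lowest without Vehicle 3 or Folfiri 1.

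Ndufs3, Ndufs7 and Ndufs8 are core subunits nearer to the ubiquinone site, the last pair with iron-sulfur clusters. Ndufs3 had 143 ± 15.3 CPM in Vehicle and 160 ± 33.3 CPM in Folfiri (SD, n = 4 each), a log2 fold change of 0.15 (SE 0.18, adjusted p = 0.803, edgeR quasi-likelihood). Ndufs7 had 248 ± 12.6 and 254 ± 29 CPM, a log2 fold change of 0.04 (SE 0.15, adjusted p = 0.95, edgeR quasi-likelihood). Ndufs8 had 171 ± 41.2 and 174 ± 16.0 CPM, a log2 fold change of 0.03 (SE 0.19, adjusted p = 0.972, edgeR quasi-likelihood). All 3 estimates were smaller than their standard errors, and all 3 were negative with the length offset.

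**Figure D3:**
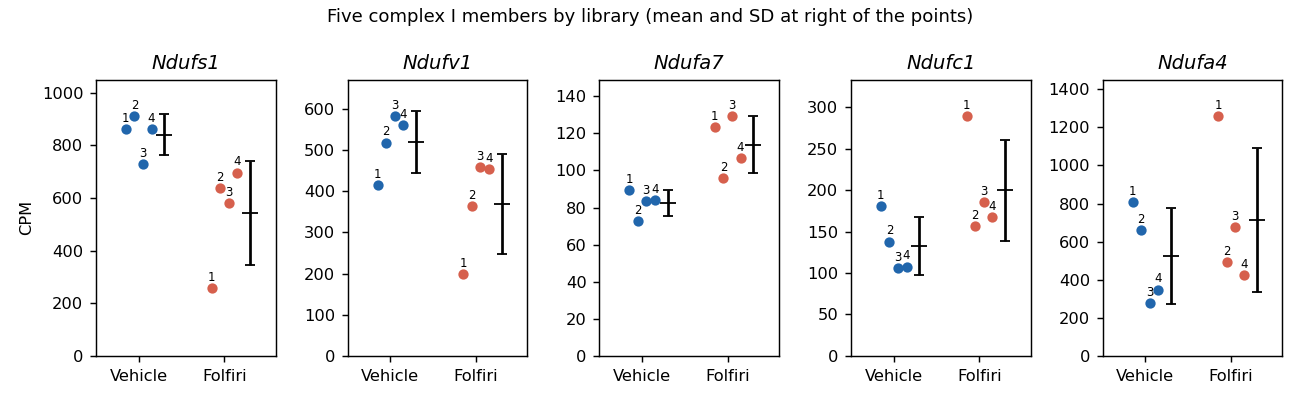
CPM of Ndufs1, Ndufv1, Ndufa7, Ndufc1 and Ndufa4 in each library, with the library number above each point, and the mean with its SD at the right of each group (n = 4), on axes that start at 0. The Ndufs1 points of Folfiri (258 to 696) all lie below those of Vehicle (729 to 912), the Ndufa7 points all lie above, and Folfiri 1 is the lowest point for Ndufs1 and Ndufv1 and the highest for Ndufc1 and Ndufa4.

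The 9 accessory subunits of the matrix arm had 8 positive estimates and 1 negative, with a median log2 fold change of 0.13. Ndufa7, at positions 33961517 to 33975261 of chromosome 17 (mm9), was the member with the smallest p. Its levels were 89.2, 72.8, 83.6 and 83.8 CPM in Vehicle and 124, 95.9, 129 and 107 CPM in Folfiri. All 4 Folfiri libraries lay above all 4 Vehicle libraries, as in 2.87% of all genes, and the lowest Folfiri value was only slightly above the highest Vehicle value. The fitted log2 change was 0.47, a 1.38-fold difference (SE 0.16, adjusted p = 0.428, edgeR quasi-likelihood). The unadjusted p was under 0.05 in all 19 alternative settings and the adjusted p in none. Ndufa7 has 1 copy at 91.8% identity and no exactly shared window.

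Ndufa9, an accessory subunit that binds a nucleotide cofactor and sits beside the ubiquinone site, was the only matrix-arm accessory member with a negative estimate. It stood at 362, 422, 375 and 352 CPM in Vehicle and at 198, 296, 386 and 315 CPM in Folfiri. The groups overlapped through Folfiri 3. Folfiri over Vehicle, the log2 fold change was -0.34 (SE 0.20, adjusted p = 0.605, edgeR quasi-likelihood), and -0.18 without Folfiri 1. Ndufa12, near the NADH-oxidising tip, had 24.8 ± 10.01 CPM in Vehicle and 34.6 ± 8.24 CPM in Folfiri, from 121 to 745 reads a library.

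The other 6 in the matrix arm differed by less than the spread between mice. Per kilobase, Ndufa6, a member of the LYR protein family, had 393 ± 166 CPM in Vehicle and 494 ± 159 in Folfiri. Ndufa2, with a thioredoxin-like fold, had 384 ± 79.6 and 422 ± 62.6, and Ndufa5 had 301 ± 25.9 and 307 ± 87.8. Ndufs6, a zinc-binding subunit, had 179 ± 30.2 and 195 ± 25.2. Ndufs4, whose loss causes Leigh syndrome in people and a like disease in mice, had 140 ± 30.8 and 148 ± 31.6, and Ndufv3, an accessory subunit of the NADH-oxidising tip, had 89.8 ± 30.5 and 97.6 ± 22.1. Ndufa7 and Ndufa9 had 68.6 ± 5.75 and 286 ± 23.5 CPM per kilobase in Vehicle.

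The 19 accessory subunits of the membrane arm gave 13 positive and 6 negative estimates with a median log2 fold change of 0.11. Ndufc1, a small subunit with a single membrane span at positions 51209401 to 51212877 of chromosome 3 (mm9), was the only one with an unadjusted p under 0.05. It stood at 181, 138, 106 and 108 CPM in Vehicle and at 290, 157, 185 and 167 CPM in Folfiri. Vehicle 1 lay within the range of Folfiri, and Folfiri 1 was well above the other 7. The estimate was a log2 fold change of 0.59 (SE 0.24, adjusted p = 0.490, edgeR quasi-likelihood), and with the length offset or without Folfiri 1, Vehicle 3 or Vehicle 4 its unadjusted p was no longer under 0.05. Over the libraries left out in turn it ran from 0.35 to 0.77.

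Ndufa3 and Ndufb8 had the next smallest p among the positive estimates. Ndufa3 stood at 96.2, 97.9, 49.0 and 50.4 CPM in Vehicle and at 137, 93.1, 163 and 55.6 CPM in Folfiri, with a log2 fold change of 0.61 (SE 0.33, adjusted p = 0.574, edgeR quasi-likelihood). Its SD was 27.4 CPM in Vehicle and 47.6 CPM in Folfiri, around means of 73.4 and 112 CPM, and without Folfiri 3 the estimate was 0.37. Ndufb8 stood at 369, 445, 330 and 427 CPM in Vehicle and at 682, 417, 552 and 397 CPM in Folfiri, with a log2 fold change of 0.38 (SE 0.21, adjusted p = 0.579, edgeR quasi-likelihood). In Ndufb8, Folfiri 1 and Folfiri 3 lay above all Vehicle libraries and the other 2 lay within them, and without Folfiri 1 the estimate was 0.21.

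Ndufb9, a LYR protein at the far end of the membrane arm, had the highest level per kilobase among the accessory subunits. It had 775 ± 45.3 CPM per kilobase in Vehicle and 803 ± 143 in Folfiri, with a log2 fold change of 0.05 (SE 0.18, adjusted p = 0.941, edgeR quasi-likelihood). Ndufb8 followed with 613 ± 83.1 and 798 ± 207. Ndufb10, a disulfide-bearing subunit on the intermembrane side, had 467 ± 47.0 and 450 ± 37.2, and Ndufb5 had 464 ± 24.8 and 469 ± 79.9, so these neighbours in the order did not differ beyond their spread.

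The next group in level held Ndufa10, a subunit with a nucleoside kinase fold, with 362 ± 112 CPM per kilobase in Vehicle and 317 ± 59.4 in Folfiri. Ndufa8, which lies on the intermembrane side, had 346 ± 24.6 and 332 ± 19.9, Ndufc1 had 321 ± 84.5 and 483 ± 148, and Ndufb7, another subunit of that side, had 266 ± 89.6 and 253 ± 65.4. Ndufb11, encoded on the X chromosome, had 239 ± 10.4 and 241 ± 48.6, the smallest relative spread of any member in Vehicle (4.34% of the mean). Their ranges overlapped between the groups in every case.

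Lower in the order, Ndufa3 had 210 ± 78.4 CPM per kilobase in Vehicle and 322 ± 136 in Folfiri, and Ndufb6 had 208 ± 62.5 and 248 ± 52.4. Ndufa13, also known as GRIM-19, had 172 ± 21.6 and 165 ± 23.4, and Ndufc2, the partner of Ndufc1, had 171 ± 28.7 and 199 ± 46.5. Ndufb2 had 157 ± 66.4 and 234 ± 99.0, and the X-linked Ndufa1 had 150 ± 18.8 and 162 ± 31.8. Ndufb3 had 83.9 ± 15.9 and 71.0 ± 14.2, and Ndufa11, a subunit with several membrane spans, had 33.6 ± 7.10 and 42.8 ± 9.15. The listed length of Ndufa11, 2661 bases, is the second longest of the members and enters that last value.

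Ndufs5 and Ndufb4 closed the order, both with copies. Ndufs5, a subunit of the intermembrane side, had 61, 41, 18 and 53 reads in the Vehicle libraries, against 85, 84, 72 and 61 in the Folfiri libraries, which gave a log2 fold change of 0.43 (SE 0.27, adjusted p = 0.624, edgeR quasi-likelihood). Ndufb4 had 21, 31, 2 and 5 reads in the Vehicle libraries, against 47, 29, 33 and 11 in the Folfiri libraries. Its log2 fold change of 0.70 (SE 0.63, adjusted p = 0.736, edgeR quasi-likelihood) was the largest in size of any member and had the largest error. The SD of Ndufb4 was 90.6% of its mean in Vehicle and 60.7% in Folfiri, and with libraries left out in turn the estimate ran from 0.31 (without Folfiri 1) to 1.36 (without Vehicle 2).

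Of the remaining pair, Ndufab1 is the mitochondrial acyl carrier protein, found in both arms and also needed for fatty acid and iron-sulfur cluster synthesis. It stood at 8.81, 9.92, 7.06 and 7.96 CPM in Vehicle and at 5.53, 6.03, 7.24 and 5.62 CPM in Folfiri. The groups overlapped only through Vehicle 3 and Folfiri 3. The fitted log2 change was -0.47 (SE 0.19, adjusted p = 0.494, edgeR quasi-likelihood), on 54 to 139 reads a library and with 93.5% of its windows shared with its copies. The unadjusted p was under 0.05 in 13 of 19 alternative settings, but not with library totals or without Vehicle 1, Vehicle 2, Folfiri 1, Folfiri 2 or Folfiri 4.

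Ndufa4, named as a complex I subunit and since assigned to cytochrome c oxidase, was the most abundant member per kilobase and the most variable of the well-covered ones. It stood at 808, 659, 276 and 348 CPM in Vehicle and at 1261, 493, 676 and 425 CPM in Folfiri. Vehicle 1 and 2 lay well above Vehicle 3 and 4 and inside the range of Folfiri. Folfiri over Vehicle, the log2 fold change was 0.45 (SE 0.39, adjusted p = 0.729, edgeR quasi-likelihood). Without single libraries it ran from 0.02 to 0.74.

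The fold changes of the members fell with transcript length. Over the 36 members the Spearman coefficient between the log2 fold change and the length was -0.51 (Pearson with log2 length -0.52), against -0.22 and -0.16 over all genes tested. These are descriptions across genes of the same 8 libraries, and genes are not independent replicates. Without any single library the members' Spearman coefficient ran from -0.57 to -0.40, and without Ndufs1, the longest, it was -0.46. With the length of the closest GENCODE M1 transcript in place of the listed one, a choice made after seeing the data, it was -0.42.

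By length class, 12 of the 14 members under 600 bases had positive estimates, against 70.2% of all genes of that length. Positive estimates were found in 8 of 11 members of 600 to 1000 bases (73.8% of all such genes), 5 of 9 of 1000 to 2000 bases (60.6%) and 1 of 2 above 2000 bases (46.2%). The members under 600 bases had a median log2 fold change of 0.38. The median was 0.04 for the 11 members of 600 to 1000 bases, 0.03 for the 9 of 1000 to 2000 bases and -0.14 for the 2 above 2000 bases. Over all genes of the same classes the medians were 0.23, 0.19, 0.08 and -0.03. By these medians the short members stood above short genes at large and the other 3 classes below theirs. With the GENCODE M1 lengths 11 members changed class, Ndufa7 and Ndufc1 among them, and the medians were 0.33 for 13 members under 600 bases, 0.03 for 11, 0.08 for 9 and -0.19 for the 3 above 2000 bases.

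**Figure D4:**
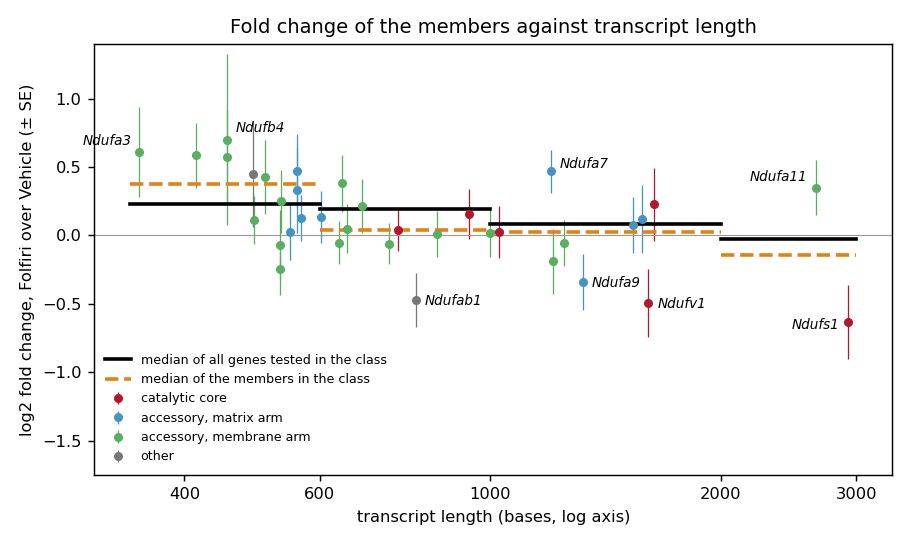
log2 fold change (Folfiri over Vehicle, bars are 1 standard error) of each of the 36 members against transcript length in bases on a logarithmic axis, coloured by role, with the median of the members (dashed) and of all genes tested (solid) in each length class. The member medians run from 0.38 under 600 bases to -0.14 above 2000 bases. Ndufs1 and Ndufv1 lie at the low end, and Ndufa7 and Ndufa11 lie above the median of all genes in the class of their listed length.

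Among the members the library Folfiri 1 had the strongest trend with length. Its deviations from the mean over libraries had a Spearman coefficient of -0.57 with length over the members, while the other 7 libraries ran from -0.13 to 0.40. Over all genes tested the coefficient was -0.22 in Folfiri 3 and -0.17 in Folfiri 1. It was the highest of all 8 libraries for 10 of the 14 members under 600 bases (71.4%, against 44.4% of all genes of that length). It was the lowest of all 8 for 4 of the 11 members of 1000 bases or more (36.4%, against 23.7% of such genes) and the highest for another 3, Ndufv2, Ndufv3 and Ndufs4 (27.3%, against 22.1%). The ratio of summed CPM of members of 1000 bases or more to that of members under 600 bases was 0.869 in Folfiri 1, between 1.67 and 1.88 in the other Folfiri libraries and between 1.69 and 2.42 in Vehicle. The Ndufs1 to Ndufa4 ratio of CPM was 0.204 in Folfiri 1, against 0.860 to 1.64 in the other 3 and 1.07 to 2.64 in Vehicle. Folfiri 1 also had the highest sum of hepatocyte markers (205 CPM) and the lowest sums of muscle fibre (120020 CPM), slow fibre (20.7 CPM) and endothelium markers (116 CPM), whose part in these values was not tested. RNA quality measures were not used here, and the part of this library's length trend in the fold changes was not tested beyond the length offset and its omission.

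Within the groups, the members fell into a large set that moved with Ndufa4 and a smaller set that did not. After removal of group means, the median Pearson coefficient of the 630 pairs of members over the 8 libraries was 0.30, against -0.002 over all pairs of genes tested. In 21 of the other 35 members the coefficient with Ndufa4 was above 0.5, as in Ndufs4 (0.97), Ndufv2 (0.97), Ndufc1 (0.95) and Ndufa6 (0.95). In 10 it was below 0, among them Ndufv1 (-0.78), Ndufb7 (-0.70) and Ndufs1 (-0.54), and Ndufs1 went with Ndufs3 (0.86), Ndufv1 (0.83) and Ndufa9 (0.82). Vehicle 1 and Vehicle 2 were the 2 highest Vehicle libraries in 23 of 36 members. Neither this count nor the count of members that moved with Ndufa4 was made over all genes or over genes of like length and level. The median over pairs was set beside all genes, most of them longer and less abundant, and not beside genes of like length and level. Whether the median or either count is particular to the members cannot be said from these values.

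**Figure D5:**
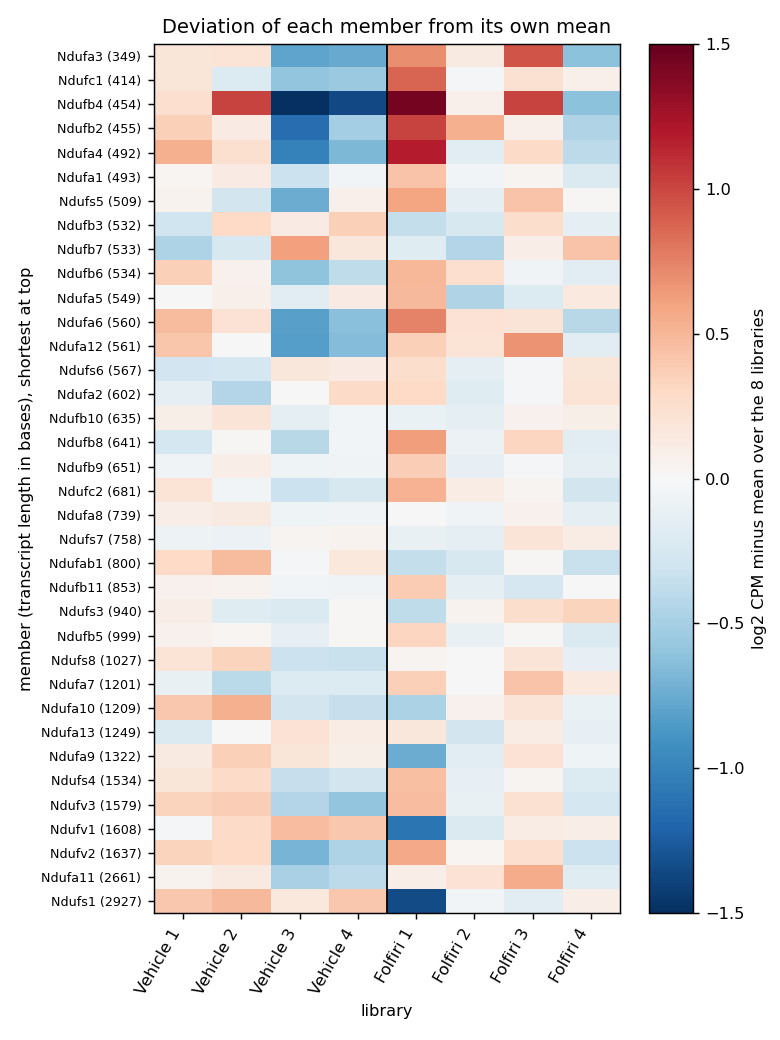
log2 CPM of each member minus its mean over the 8 libraries (colour, red above and blue below the mean), with members in rows from the shortest (Ndufa3, 349 bases) to the longest (Ndufs1, 2927 bases) and libraries in columns, Vehicle left of the line. Vehicle 3 and 4 are blue for most short members, and Folfiri 1 is red at the top and deep blue for Ndufs1 and Ndufv1.

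The base composition of the coding sequence was compared with these deviations. The GC content of the members with a coefficient above 0.5 had a median of 52.8%, and that of the 10 below 0 a median of 55.3%, with wide overlap (46.2% to 58.8% and 45.1% to 61.5%). In Vehicle 1 the deviations of the members had a Spearman coefficient of -0.44 with GC content, and in Vehicle 2 of -0.39. The other libraries ran from -0.118 (Folfiri 1) to 0.271 (Folfiri 4). Over all genes with a matched coding sequence the values were -0.38 in Vehicle 1 and -0.12 in Vehicle 2. In the others they ran from -0.225 (Folfiri 1) to 0.328 (Folfiri 4), so trends with GC content were not confined to Vehicle 1 and 2. The log2 fold change itself was almost unrelated to GC content over the members (0.08). The part of base composition in the covariation was not tested.

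Promoter sequences were available for 33 of the 36 members, as 300 bases around the RefSeq start site on GRCm38.p6. Letter patterns of factors known to act on respiratory chain genes were searched on both strands. The nuclear respiratory factor 1 pattern GCGCANGCG was found in 8 of 33 (24.2%, against 15.1% of the 9598 tested genes with a promoter sequence), and the YY1 pattern AAGATGGCG in 5 (15.2% against 3.6%). The pattern AAGGTCA of oestrogen-related receptors was found in 3 (9.1% against 3.9%), CCGGAAG of ETS factors in 4 (12.1% against 19.4%) and GGGCGG of SP1 in 15 (45.5% against 68.6%). The patterns do not contain one another, a match is only a match of letters, and a missing pattern draws nothing about the factor.

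The promoters of Ndufc1 and Ndufb4 are shown as 2 members that moved with Ndufa4 between libraries and carry different patterns. Ndufb4 had only 2 to 47 reads a library. All (100%) of its 75-base coding windows also occur elsewhere, so its reads cannot be assigned to this promoter. Whether the patterns bear on the covariation was not tested. Capitals mark the matched patterns, the YY1 pattern in Ndufc1, and 3 matches of nuclear respiratory factor 1, 1 of oestrogen-related receptors and 1 of SP1 in Ndufb4.
Ndufc1 (GRCm38.p6, chr3:51408906-51409205, minus strand): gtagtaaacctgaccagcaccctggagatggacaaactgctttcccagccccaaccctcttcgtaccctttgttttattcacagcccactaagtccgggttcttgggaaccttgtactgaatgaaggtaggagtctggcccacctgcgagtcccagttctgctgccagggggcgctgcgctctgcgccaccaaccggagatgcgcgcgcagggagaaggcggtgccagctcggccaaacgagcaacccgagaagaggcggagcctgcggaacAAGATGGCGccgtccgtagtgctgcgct
Ndufb4 (GRCm38.p6, chr16:37654319-37654618, minus strand): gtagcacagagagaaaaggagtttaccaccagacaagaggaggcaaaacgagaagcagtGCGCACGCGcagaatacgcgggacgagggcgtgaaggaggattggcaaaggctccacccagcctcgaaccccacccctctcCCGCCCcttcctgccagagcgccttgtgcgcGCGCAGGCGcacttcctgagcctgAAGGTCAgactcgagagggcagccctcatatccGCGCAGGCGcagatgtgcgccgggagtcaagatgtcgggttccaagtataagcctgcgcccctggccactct

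Other genes of the pathway were set beside the members. Of 16 tested assembly factors, which build the complex and are not part of it, 10 had positive and 6 negative estimates and 0 were called. At an unadjusted p under 0.05, beside 5.48% of all genes higher, 2 of the 16 were higher. These were Ndufaf6 (23.7 ± 3.71 and 33.0 ± 5.86 CPM, log2 fold change 0.48, SE 0.18, adjusted p = 0.460, edgeR quasi-likelihood) and Ndufaf5 (65.7 ± 10.7 and 99.7 ± 37.2 CPM, log2 fold change 0.60, SE 0.24, adjusted p = 0.471, edgeR quasi-likelihood). Without Folfiri 1 the estimate of Ndufaf5 was 0.31. Ecsit, the most abundant of them, stood at 101 ± 9.41 and 101 ± 17.5 CPM. The assembly factors had a median log2 fold change of 0.12, as for the subunits, but with a Spearman coefficient of -0.05 with length.

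Complexes II to V gave 19 positive and 21 negative estimates among 40 tested genes, with 0 called, a median of -0.03 and a coefficient with length of -0.42. At an unadjusted p under 0.05, 5 were higher and 1 lower, beside 5.48% and 4.02% of all genes. All 4 Folfiri libraries lay above all Vehicle libraries in 3 of the 40 and below them in 2, beside 2.87% and 2.66% of all genes. Cox6a2 and Cox8b, muscle forms of cytochrome c oxidase subunits, stood higher in all 4 Folfiri libraries than in any Vehicle library. Cox6a2 had 395, 478, 299.9 and 302 CPM in Vehicle and 517, 544, 927 and 540 CPM in Folfiri (log2 fold change 0.78, SE 0.24, adjusted p = 0.398, edgeR quasi-likelihood). Cox8b had 278 ± 85.1 CPM in Vehicle and 506 ± 159 CPM in Folfiri (log2 fold change 0.86, SE 0.27, adjusted p = 0.405, edgeR quasi-likelihood). Atp5b, the catalytic subunit of ATP synthase and a long transcript beside these, went the other way with 4099 ± 270 and 2999 ± 954 CPM and no overlap (log2 fold change -0.45, SE 0.27, adjusted p = 0.598, edgeR quasi-likelihood). Atp5a1, its partner, had 3201 ± 276 and 2497 ± 950 CPM (log2 fold change -0.36, SE 0.29, adjusted p = 0.712, edgeR quasi-likelihood). Without Folfiri 1 the estimates were -0.24 for Atp5b and -0.12 for Atp5a1.

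Among 9 regulators of respiratory chain genes, 8 had negative estimates, with a median log2 fold change of -0.25, and 0 were called. At an unadjusted p under 0.05, 2 of the 9 were lower, beside 4.02% of all genes. Ppargc1a, the coactivator that drives mitochondrial gene programmes, had 90.9, 152, 44.9 and 49.7 CPM in Vehicle and 46.7, 58.1, 53.7 and 42.8 CPM in Folfiri. Its log2 fold change was -0.75 (SE 0.33, adjusted p = 0.510, edgeR quasi-likelihood), and -0.30 without Vehicle 2. Vehicle 1 and 2, the 2 highest Vehicle libraries in 23 of 36 members (a count not made over all genes), were also its highest. Esrrg, an oestrogen-related receptor, had 25.7 ± 23.5 and 10.2 ± 5.78 CPM (log2 fold change -1.34, SE 0.56, adjusted p = 0.498, edgeR quasi-likelihood), and its estimate was -0.49 without Vehicle 2. Esrra had 99.4 ± 23.1 and 87.3 ± 14.1 CPM (log2 fold change -0.19, SE 0.20, adjusted p = 0.783, edgeR quasi-likelihood), and its estimate ran from -0.31 (without Vehicle 1) to -0.09 (without Vehicle 3 or Vehicle 4).

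Depth and the RNA levels of cell type markers differed between libraries. Totals ran from 8505985 to 21056818 counts and Pearson coefficients between replicates of log2 CPM from 0.948 to 0.978. All 12 muscle fibre markers were expressed, with a summed level of 120020 CPM in Folfiri 1 and 135540 to 218350 CPM in the others, and the sample was muscle by that measure. The 7 markers of slow fibres all had negative estimates, 0 of them at an unadjusted p under 0.05 (edgeR quasi-likelihood). Their sums were 83.6 to 1356 CPM in Vehicle and 20.7 to 541 CPM in Folfiri, and the highest was Vehicle 2. The 4 brown adipocyte markers summed to 368 CPM in Vehicle 2 and 1.57 to 30.6 CPM in the other Vehicle libraries, against 1.95 to 4.82 CPM in Folfiri. The 7 markers of all adipocytes ran from 210 to 1567 CPM in Vehicle and from 185 to 549 CPM in Folfiri. The 6 tested hepatocyte markers were all higher in Folfiri at an unadjusted p under 0.05 (edgeR quasi-likelihood), beside 5.48% of all genes. Their sums were 6.16 to 205 CPM against 0.322 to 8.87 CPM, and Ttr and Fgb had 0 reads in 3 of 4 Vehicle libraries. With such low sums in Vehicle, the filter on summed reads could keep such markers through Folfiri alone. Sums overlapped between Vehicle and Folfiri for erythroid (63.8 to 143 and 17.8 to 99.3 CPM), macrophage (43.1 to 73.1 and 59.3 to 95.9 CPM) and endothelium markers (222 to 339 and 116 to 277 CPM). Estimates were positive in 1 of 4 brown adipocyte, 1 of 7 adipocyte, 1 of 4 erythroid, 5 of 5 macrophage, 0 of 5 endothelium and 2 of 12 muscle fibre markers. Of these, 3, 1, 2, 2, 1 and 1 had an unadjusted p under 0.05 in either direction (edgeR quasi-likelihood). Over all genes the shares were 5.48% higher and 4.02% lower. Marker RNA does not count cells, and the part of cell makeup in the members' levels was not tested.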

How the data were processed

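Quadriceps RNA of 4 Vehicle and 4 Folfiri mice, grouped by the treatment in the labels, was analysed. The authors made strand-specific SOLiD libraries from poly(A) RNA, removed low-quality, rRNA and tRNA reads, mapped 75-base reads with bfast to mm9 and its splice junctions, and counted reads per RefSeq gene with NGSUtils. Whether counting used strand is not given in the sources used here, and 7 members overlap exons of an opposite-strand gene. The deposited counts are the authors' raw reads for 12896 genes, without scaling, and the deposited length column, another quantity, is the authors' gene length in bases. The authors' scaled columns and their edgeR fold changes and p-values were not used. Of the gene names, 21 had been turned into dates and stayed as listed.

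With R 4.3.3, edgeR 4.0.16 scaled counts by TMM and tested 12883 genes (at least 40 reads in sum) by the quasi-likelihood test, with Benjamini-Hochberg adjustment over all of them and a threshold of 0.05. The fit used group alone, with 6 residual degrees of freedom. Each p sets the difference between the groups against the spread between animals within a group, estimated with information from all genes. Total counts of 8505985 to 21056818 set the counting error. The alternatives were RLE factors, library totals, other filters, the exact and likelihood ratio tests, DESeq2 1.42.0, limma 3.58.1 voom with quality weights, a lowess offset for length, a replicate block, and omission of each library. Copies were sought with BLAST 2.17.0 in the NCBIM37 (mm9) genome with GENCODE M1 coding sequences, and promoters came from RefSeq on GRCm38.p6. The differential expression tests were tested on simulated data, counts with known changes. The membership rule used names only, but it and the gene lists were drawn up with earlier results of these data known. Values were given for every member, with fold changes for the 6 core members, the 4 smallest p in each direction, the 3 highest and 3 lowest levels per length, members whose groups do not overlap and, per pathway list, the 2 smallest p and 2 highest CPM.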

Additional observations from a re-analysis of the deposited data

Results flagged for a closer look

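Among the 72 sets of 4 libraries examined (36 members in each group), 1 had a library far from the other 3. Ndufb9, the accessory subunit at the end of the membrane arm, stood at 549 CPM in Vehicle 2, while the other 3 Vehicle libraries lay between 487 and 492 CPM. Chance flags about 1 in 20 such sets. Vehicle 2 also held the highest sum of brown adipocyte markers (368 CPM) and of slow fibre markers (1356 CPM), whose part in this value was not tested.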

How the results depend on the processing

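No member was called in any of the 19 alternatives, in which 0 to 101 of all genes were called, and the result was the same in the 24 members without a near-identical copy, a set chosen after seeing the data. The members at an unadjusted p under 0.05 (2 higher and 2 lower), beside 706 and 518 of all genes, became 4 higher with limma voom (828 of all genes), 0 lower with library totals only (188), 1 higher and 4 lower with the length correction (598 and 564), 1 higher and 5 lower with the replicate block and length correction together (765 and 747), and 1 higher and 1 lower without the copied members. Leaving out 1 library gave 1 to 6 higher (6 without Folfiri 4, 4 without Vehicle 1, beside 715 and 722 of all genes) and 0 to 3 lower (0 without Vehicle 1 or Vehicle 2, beside 537 and 391). With library totals the median over all genes tested was 0.14 instead of 0.01, and over the members 0.25. The members' median of 0.12 became -0.15 with the length correction and -0.13 with the replicate block and length correction, and 0.02 to 0.16 with a library left out. The coefficient with length stayed at or below -0.27 in all settings, and between -0.57 and -0.40 with a library left out. With the replicate block alone, 3 members were higher and 3 lower, beside 957 and 706 of all genes, with a median of 0.12. Whether the numbers pair the libraries is not known, since the labels name nothing shared. Same-numbered deviations correlated at 0.30, 0.14, 0.06 and 0.20, and those of different numbers at -0.295 to 0.294. Folfiri 1 and Folfiri 2 correlated best with their own number, and Folfiri 3 and Folfiri 4 with another (0.289 and 0.294). Signs of estimates near 0 turned. With the length correction Ndufs3 was -0.014, Ndufs7 -0.19, Ndufs8 -0.14, Ndufb9 -0.24 and Ecsit -0.064, and with the replicate block as well -0.053, -0.21, -0.12, -0.23 and -0.073. Ndufb9 was -0.024 with limma voom, and Ecsit was 0 with RLE factors and -0.0001 with DESeq2. With a library left out, Ndufs7 ran from -0.031 to 0.086, Ndufs8 from -0.07 to 0.16, Ndufb9 from -0.082 to 0.11 and Ecsit from -0.12 to 0.070. The cause of these changes was not tested, apart from the offset itself. Ndufb4 had 2 reads in 1 library, the fewest of any member.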
